A study of Homo sapiens with 6 samples.

Results

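Chromosomes 4 and 13 are long human autosomes with few genes for their length, and they were examined here as places where the RNA-binding protein Angel1 was crosslinked to RNA. The members were all clusters that the deposited peak lists placed on chromosome 4 or chromosome 13, with no value of the clusters used to choose them. They numbered 9515 of 205520 clusters in 3 lists. Angel1 replicate 1 had 4685 of its 102843 clusters there, with 3025 on chromosome 4 and 1660 on chromosome 13. Angel1 replicate 2 had 4518 of 96960, with 2812 and 1706. The control IP had 312 of 5717, with 133 and 179.

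The lists came from enhanced crosslinking and immunoprecipitation (eCLIP) in HEK293 cells of the Flp-In T-REx system, derived from human embryonic kidney, in which a transgene sits at a defined site under a tetracycline-regulated promoter. Cells of every group received 5 ng/mL tetracycline for 24 h and were irradiated at 254 nm with 400 mJ/cm2, and RNA bound to anti-FLAG M2 antibody was sequenced beside a size-matched input. The 6 libraries were an IP and an input for each of 2 FLAG-Angel1 replicates, which carry N-terminally FLAG-tagged Angel1, and for 1 control. Per the study's methods the control was the parental line with no FLAG fusion protein, although its genotype label also reads FLAG-Angel1, and the methods mention a sample without crosslinking that no label marks. There was 1 control IP, so its own spread is unknown, and no source says whether the 2 Angel1 replicates came from separate cultures.

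Angel1 belongs to the CCR4 family of deadenylase-like proteins and binds the cap-binding protein eIF4E, and it has been linked to the decay of mRNAs on which ribosomes run past the end of the reading frame. In eCLIP, ultraviolet light joins a protein to the RNA it touches, and reads that pile up on a transcript are called as a cluster. A cluster can form only where RNA is made, so a chromosome with few or silent genes offers few places for one. Human chromosomes differ widely in gene content and base composition, with gene-rich and GC-rich segments often lying near chromosome ends and long gene-poor stretches between them.

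The description of chromosomes 4 and 13 as gene-poor was borne out by the RefSeq gene table. The description as AT-rich could not be checked, since promoters do not stand for the whole length of a chromosome. Chromosome 13 carried 2.93 protein-coding gene names per Mb, the fewest of the 22 autosomes, and chromosome 4 carried 4.03, the third fewest, against 6.998 for the other 20 autosomes together. Base composition could be read only in the 300 bases around gene starts, where the median GC content was 61.0% over 967 promoters of chromosome 4, the third lowest, and 62.3% over 434 promoters of chromosome 13, the ninth lowest. The other autosomes had a median of 62.7%. Promoters under 50% GC made up 27.1% on chromosome 4, 20.97% on chromosome 13 and 19.1% on the other autosomes. Gene names and promoters were taken from GRCh38.p14, while the clusters lie on GRCh37, so no cluster was assigned to a gene and no sequence under a cluster is shown.

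The first question was how densely Angel1 clusters cover these chromosomes. Over the whole assembled length, both Angel1 replicates had fewer clusters per Mb on chromosomes 4 and 13 than on any other autosome. Replicate 1 had 15.8 clusters per Mb on chromosome 4 and 14.4 on chromosome 13, and the other 20 autosomes ran from 18.99 to 141. Replicate 2 had 14.7 and 14.8, and the others ran from 17.1 to 125. Set against the other autosomes together (37.0 and 34.7 per Mb), the density on both chromosomes was 0.414 times theirs in replicate 1 and 0.425 times in replicate 2. The place of chromosome 13 depends on the divisor, since its length includes a short arm without clusters. Per Mb between the first and the last cluster of the 3 lists, chromosome 4 was the lowest in both replicates (15.9 and 14.7), and chromosome 13 had 17.3 in replicate 1, second lowest, and 17.8 in replicate 2, where chromosome 18 was lower at 17.2. A cluster count reflects the amount of RNA as well as crosslinking, and the lists hold no read counts, so these cannot be told apart here.

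Per gene name the difference was smaller, and it differed between the 2 chromosomes. Chromosome 4 had 3.93 clusters per protein-coding gene name in replicate 1 and 3.65 in replicate 2, the lowest and second-lowest values among the autosomes. Chromosome 13 had 4.91 and 5.05, inside the range of the other autosomes (4.003 to 7.80 in replicate 1 and 3.55 to 8.02 in replicate 2). The other autosomes together had 5.28 and 4.96. Across the 22 autosomes, gene names per Mb and clusters per Mb had a Pearson correlation of 0.974 in replicate 1 and 0.964 in replicate 2, with Spearman values of 0.888 and 0.878. These are descriptions over 22 chromosomes of unequal length, and both measures share the chromosome's length as divisor.

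The control IP did not place the 2 chromosomes together. Chromosome 4 had 0.696 control clusters per Mb, the lowest of all autosomes, whereas chromosome 13 had 1.55, the twelfth lowest, against 1.95 for the other autosomes. Per protein-coding gene name the control had 0.173 clusters on chromosome 4 and 0.530 on chromosome 13, beside 0.279 on the other autosomes. Chromosome 13 thus ranked among the 3 lowest in density in the Angel1 lists by either divisor, whereas in the control list it ranked 12 by its whole length and 15 between the first and last cluster. Chromosome 18 differed in the same way: by whole length it ranked 3 in both Angel1 lists and 17 in the control. It had 0.667 control clusters per protein-coding gene name.

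**Figure D1:**
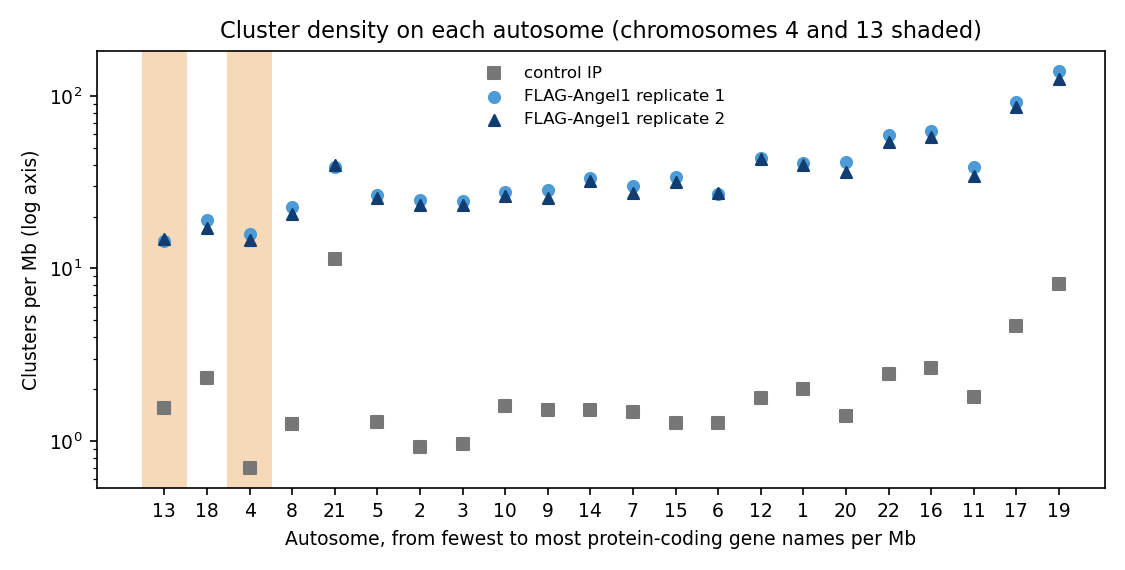
Clusters per Mb (log axis) on each of the 22 autosomes, ordered from fewest to most protein-coding gene names per Mb, for the control IP (squares), Angel1 replicate 1 (circles) and replicate 2 (triangles). The shaded columns are chromosomes 13 and 4: their Angel1 points, between 14.4 and 15.8 per Mb, are the lowest in the plot for those libraries, while the control point of chromosome 13 (1.55) lies among those of other autosomes.

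The clusters were spread unevenly along both chromosomes, with 1 dense end on each. The first 10 Mb of chromosome 4 held 783 of its clusters in replicate 1 (25.9%, 78.3 per Mb) and 668 in replicate 2 (23.8%, 66.8 per Mb). The rest of chromosome 4 held 12.4 and 11.8 clusters per Mb, and no other 10 Mb segment passed 19.2 in replicate 1 or 19.8 in replicate 2. On chromosome 13 the last segment, chr13:110000001-115169878, held 342 clusters in replicate 1 (20.6%, 66.2 per Mb) and 341 in replicate 2 (19.99%, 66.0 per Mb). The rest of chromosome 13 held 11.98 and 12.4 per Mb, with no other segment above 24.3 and 24.8. The control was dense at the same ends, with 43 of its 133 clusters in the first 10 Mb of chromosome 4 (4.30 per Mb, against 0.497 in the rest) and 32 of 179 at the end of chromosome 13 (6.19 per Mb, against 1.34).

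Away from the dense ends lay long stretches without any Angel1 cluster. The longest on chromosome 4 was chr4:130023858-138453399, 8.43 Mb with no cluster in either replicate and 0 in the control. The longest on chromosome 13 was chr13:80914989-88855307, 7.94 Mb, also with 0 control clusters. Stretches of at least 1 Mb between neighbouring clusters of the pooled Angel1 lists numbered 37 on chromosome 4 and 18 on chromosome 13, and they covered 47.7% and 36.5% of their length, against 33.1% on the other autosomes. Chromosome 13 is acrocentric, and its short arm is largely unassembled repeat sequence. Its first cluster began at chr13:19184791 in replicate 1 and at chr13:20207896 in replicate 2, and this leading stretch is not counted among the stretches between clusters. The leading stretch does remain in the whole length by which the 36.5% was divided, which lowers that share.

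In windows of 100 kb, most of both chromosomes was empty. Of 3064 windows, 2141 (69.9%) had no cluster in either Angel1 replicate, against 57.1% on the other autosomes. A window with at least 1 cluster held 5.51 clusters on average in replicate 1 and 5.57 in replicate 2, against 9.08 and 8.87 elsewhere. Windows with 10 or more clusters in each replicate numbered 101 (3.30%), against 10.3% of the windows of other autosomes. Such crowded windows, taken in each replicate alone, held 46.8% of the clusters of chromosomes 4 and 13 in replicate 1 and 45.9% in replicate 2, against 70.4% and 69.9% elsewhere. Of the 923 windows with a cluster in either replicate, 738 (80.0%) had one in both, against 85.9% elsewhere. Over these 738, the counts of the replicates had a Pearson correlation of 0.895 and a Spearman correlation of 0.760, against 0.934 and 0.866 over the windows of other autosomes. That is a description of neighbouring windows on shared chromosomes.

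The 8 windows of chromosome 4 with the most clusters in both replicates all lay in its first 3 Mb. The fullest was chr4:1900001-2000000, with 52 clusters in replicate 1 and 57 in replicate 2, beside 2 control clusters. It ranked 73rd among all autosomal windows, the highest place of any window of either chromosome. Of its clusters, 18 and 34 were enriched over input (defined below as P below 0.05 with a log2 fold above 0), and 40 and 43 lay on the plus strand. The second, chr4:1200001-1300000, had 43 and 41 clusters with 5 in the control, 37 and 35 of them on the minus strand. The third, chr4:1300001-1400000, had 40 and 36 clusters, all on the plus strand, of which 0 and 6 were enriched. In both replicates these windows had the same order by enriched clusters as by all clusters. The enriched clusters dropped more steeply, from 10 and 26 in chr4:1200001-1300000 to 0 and 6 in chr4:1300001-1400000, although the 2 windows held like numbers of clusters.

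The other windows of this set held 31 to 41 clusters in replicate 1 and 27 to 34 in replicate 2. They were chr4:900001-1000000 with 41 and 33 clusters, chr4:2900001-3000000 with 38 and 32, and chr4:800001-900000 with 31 and 34. The last of these was entirely on the minus strand and had 0 and 5 enriched clusters and no control cluster. The set ended with chr4:1800001-1900000, with 34 and 30 clusters of which 3 and 19 were enriched, and chr4:700001-800000, with 31 and 27 of which 1 and 4 were enriched.

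On chromosome 13 the fullest windows lay in 2 regions, near 96 to 99 Mb and near the end, with a pair of others farther in. The fullest, chr13:98600001-98700000, had 38 clusters in replicate 1 and 36 in replicate 2, all on the plus strand, with 7 in the control. All 36 clusters of replicate 2 there were enriched, and 11 of the 38 in replicate 1. The second, chr13:113700001-113800000, had 39 and 31 clusters, again all on the plus strand, of which 0 and 3 were enriched, with 1 in the control. These windows held like numbers of clusters and differed in how many were enriched, in both replicates.

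The third window of chromosome 13, chr13:99000001-99100000, had 32 and 28 plus-strand clusters, of which 3 and 7 were enriched. The window chr13:113800001-113900000 had 29 and 26 clusters on both strands. The window chr13:96200001-96300000 had 30 and 22 clusters, all on the minus strand, with 14 and 18 enriched and no control cluster, the most enriched clusters of replicate 1 among these 8 windows. The remaining windows were chr13:114100001-114200000 with 21 and 27 clusters, chr13:45900001-46000000 with 21 and 21, and chr13:37500001-37600000 with 19 and 21. A window filled on 1 strand may hold clusters of a single transcript, which are then not independent of each other.

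**Figure D2:**
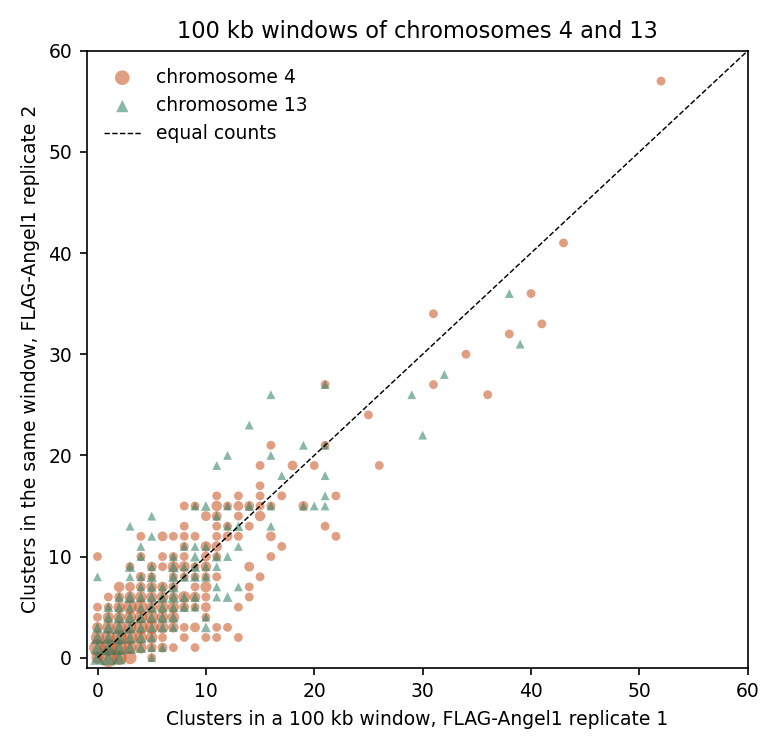
Clusters per 100 kb window in Angel1 replicate 1 (x axis) and replicate 2 (y axis) for chromosome 4 (circles) and chromosome 13 (triangles), with larger marks where more windows share a pair of counts. The windows follow the dashed line of equal counts, and the highest mark is the chromosome 4 window with 52 and 57 clusters.

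Each cluster carries a P value and a log2 fold of IP over input from the authors' input normalization. Here a cluster is called enriched when its P is below 0.05 and its log2 fold is above 0. In replicate 1, 194 clusters of chromosome 4 were enriched (6.41%, Wilson 95% interval 5.59 to 7.34) and 140 of chromosome 13 (8.43%, 7.19 to 9.87), beside 11.7% of all clusters in the list. In replicate 2, 881 of chromosome 4 (31.3%, 29.6 to 33.1) and 571 of chromosome 13 (33.5%, 31.3 to 35.7) were enriched, beside 40.7% of all clusters. All 4 shares lay below the list's own share in the same replicate, with intervals that did not reach it. The intervals cover counting error only, clusters of a chromosome are not replicates, and no test over the 2 Angel1 IPs was run.

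These shares were low but not the lowest among autosomes. Counted from the lowest, chromosome 4 ranked 3 in both replicates, and chromosome 13 ranked 8 and 5, while the other autosomes ran from 6.07% to 23.2% in replicate 1 and from 28.3% to 50.7% in replicate 2. Together, fewer clusters and a lower enriched share left 1.09 enriched clusters per Mb on chromosomes 4 and 13 in replicate 1 and 4.74 in replicate 2, which is 0.252 and 0.334 times the density of the other autosomes. Past the stricter P of 0.001 were 51 clusters of chromosome 4 and 45 of chromosome 13 in replicate 1 (2.05% of both, beside 4.22% of all clusters) and 281 and 177 in replicate 2 (10.1%, beside 17.0%).

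**Figure D3:**
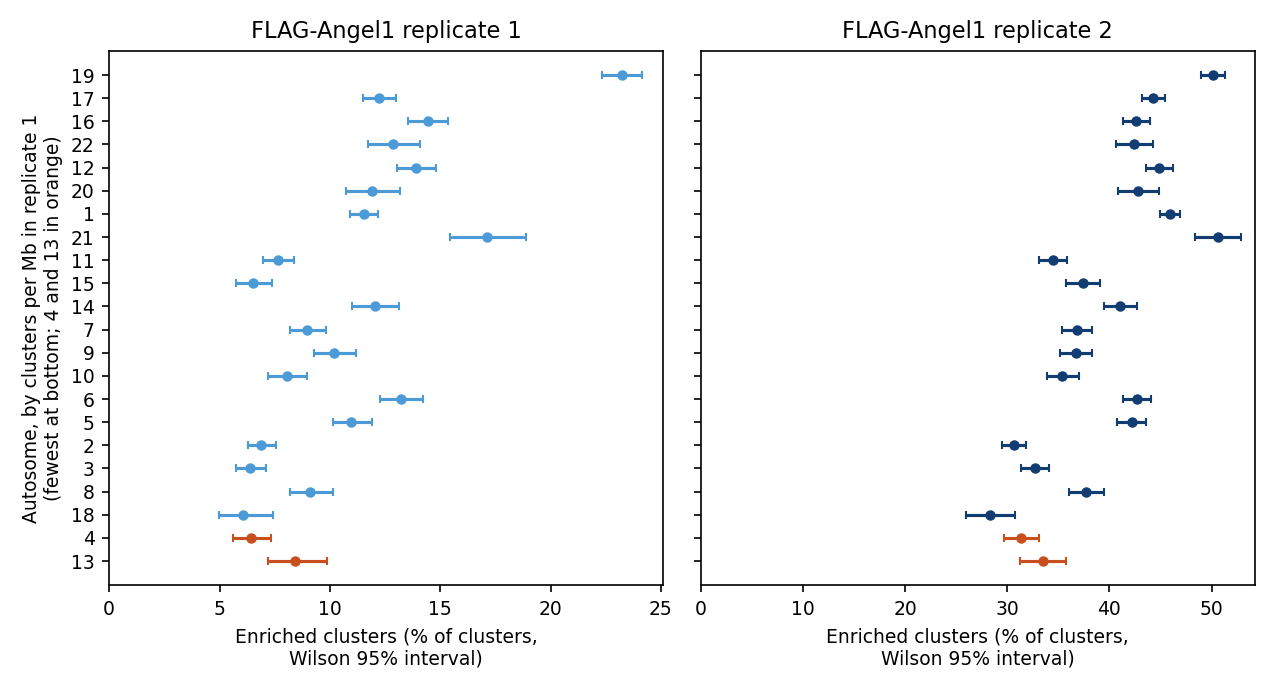
Share of clusters enriched over input on each autosome in Angel1 replicate 1 (left) and replicate 2 (right), with Wilson 95% intervals, ordered by clusters per Mb in replicate 1. Chromosomes 4 and 13, in orange at the bottom, lie at 6.41% and 8.43% in replicate 1 and at 31.3% and 33.5% in replicate 2, low in both panels but within or near the range of the sparser autosomes.

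The fold was lower than elsewhere in replicate 1 and nearly level with it in replicate 2. The mean log2 fold of chromosomes 4 and 13 was 0.35 in replicate 1, against 0.56 on the other autosomes, and 1.82 in replicate 2, against 1.85. Within bands of fold below 3 the enriched share was also lower or near that of other autosomes. At a log2 fold from 1 to 2, 14.6% of the clusters of chromosomes 4 and 13 were enriched in replicate 1 (12.4 to 17.0) against 20.9% elsewhere (20.4 to 21.5), and 18.03% in replicate 2 (16.3 to 19.9) against 25.7% (25.2 to 26.1). At a fold from 2 to 3 the shares were 58.2% and 62.7% in replicate 1, with overlapping intervals, and 49.5% (47.0 to 52.0) and 62.1% (61.5 to 62.6) in replicate 2. Above a fold of 3 every cluster was enriched, 38 on chromosomes 4 and 13 in replicate 1 and 374 in replicate 2, as on the other autosomes. At a given fold P depends on the number of reads, which the lists do not hold.

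The folds fall on steps, as ratios of small counts do. The most frequent value in replicate 2, 1.73, was shared by 16.4% of the clusters of chromosomes 4 and 13 and by 12.9% elsewhere, and it was the median on both chromosomes. In replicate 1 the most frequent value, -0.65, was shared by 13.6% and 9.70%. In the control the value 5.54 was shared by 30.8% of the clusters of chromosomes 4 and 13 and by 17.5% elsewhere.

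The share enriched was highest in the most crowded windows, here set by the other replicate's count so that a list did not choose its own windows, and it did not rise steadily below them. In windows with 10 or more clusters, 11.3% of the replicate 1 clusters of chromosomes 4 and 13 were enriched (10.0 to 12.8), against 15.0% elsewhere, and 40.9% of those of replicate 2 (38.7 to 43.0), against 47.3%. This class has no upper limit, and the fullest windows held 52 and 57 clusters on chromosomes 4 and 13 but 129 and 120 elsewhere. In windows with 3 to 9 clusters the shares were 4.32% against 5.996% in replicate 1 and 27.9% against 28.8% in replicate 2. In windows with 1 or 2 they were 4.59% against 3.67% and 15.6% against 20.5%. In windows where the other replicate had no cluster, 0 of 169 clusters of replicate 1 were enriched, against 0.237% elsewhere, and 20.3% of 128 clusters of replicate 2 (14.3 to 28.1), against 8.90% (7.23 to 10.9). The share on chromosomes 4 and 13 was thus lower, with intervals apart, in windows with 10 or more clusters in both replicates, with 3 to 9 in replicate 1 and with 1 or 2 in replicate 2. The intervals overlapped at 3 to 9 clusters in replicate 2 and at 1 or 2 in replicate 1, and the share was higher in windows where only replicate 2 had clusters.

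Clusters on chromosomes 4 and 13 were slightly wider than elsewhere in the Angel1 lists. The median width was 63 nt on each chromosome in replicate 1 (36 to 94 nt between the quartiles over both, against a median of 60 and quartiles of 32 and 91 elsewhere). In replicate 2 it was 53 nt on chromosome 4 and 54 nt on chromosome 13, against 50. The medians of the other 20 autosomes ran from 50 to 63 nt in replicate 1 and from 46 to 53 nt in replicate 2. Fewer clusters were pieces that abut another on the same strand, 14.2% against 18.7% in replicate 1 and 7.90% against 11.6% in replicate 2.

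The widest and the most enriched clusters gave the outer limits of the lists. In replicate 1 the widest cluster of chromosome 4 was chr4:90228766-90229083 (318 nt) and that of chromosome 13 was chr13:46562931-46563223 (293 nt). In replicate 2 they were chr4:174169137-174169468 (332 nt) and chr13:37393699-37394053 (355 nt). The highest log2 fold of replicate 1 was 3.65 at chr4:1729489-1729589 and 3.99 at chr13:113485714-113485864. The highest of replicate 2 was 4.79 at chr4:187534263-187534351 and 5.07 at chr13:98666294-98666383, the latter inside the fullest window of chromosome 13.

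The next question was how far the replicates found the same clusters. Overlap was counted as at least 1 nt on the same strand. Of the replicate 1 clusters, 48.4% on chromosome 4 (46.7 to 50.2) and 53.3% on chromosome 13 (50.8 to 55.6) overlapped a cluster of replicate 2, beside 52.6% of the whole list. Of the replicate 2 clusters, 51.7% on chromosome 4 (49.9 to 53.6) and 50.2% on chromosome 13 (47.9 to 52.6) overlapped replicate 1, beside 54.6%. Chromosome 13 had the lowest share of the 22 autosomes in the second direction and ranked 14 from the lowest in the first. In windows where the other replicate had 10 or more clusters, the shares on chromosomes 4 and 13 were 59.1% in replicate 1 and 57.6% in replicate 2. Elsewhere they were 57.3% and 57.8%. These windows are not equally crowded, since the class has no upper limit, and the count that sets it also bears on overlap. Whether crowding accounts for the differences in overlap was not tested.

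Among enriched clusters the 2 directions differed. Of the 334 enriched clusters of replicate 1 on both chromosomes, 79.0% lay over an enriched cluster of replicate 2 (74.4 to 83.1), against 76.5% elsewhere, with overlapping intervals. Of the 1452 of replicate 2, 19.1% lay over an enriched cluster of replicate 1 (17.2 to 21.3), against 23.8%. The replicates called different numbers of enriched clusters, so each share has its own denominator.

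The fold itself was only loosely shared. Over 2349 pairs of overlapping clusters on chromosomes 4 and 13, the log2 folds of the replicates had a Pearson correlation of 0.215 and a Spearman correlation of 0.174, against 0.221 and 0.177 elsewhere. In 84.0% of the pairs replicate 2 had the higher fold, against 81.1% elsewhere. The median of all differences was 1.22 with an SD of 1.25, against 1.09 with an SD of 1.25 elsewhere. In the 262 pairs enriched in both replicates the Pearson correlation was 0.029. Those pairs were chosen by fold and P in both replicates, which narrows the range of fold and can lower a correlation. No value for such pairs elsewhere is given, so it says little about how far the fold was shared. Pairs of neighbouring clusters share transcripts, and these correlations are descriptions. Each replicate was set against its own input, so differences in fold between the replicates are not on 1 scale.

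Reproducible peaks were built by merging overlapping clusters that, in each replicate, passed P of 0.001 and were higher in the IP than in the input. Chromosomes 4 and 13 held 51 of 2243, 28 on chromosome 4 and 23 on chromosome 13. This is 14.6 per 100 Mb on chromosome 4, the lowest of the autosomes, and 19.97 on chromosome 13, the third lowest, against 80.7 on the other autosomes. Of the clusters past P of 0.001, 81.3% in replicate 1 (72.3 to 87.8) and 15.9% in replicate 2 (12.9 to 19.6) entered a peak, beside 75.6% and 20.9% over all chromosomes. The peaks had a median width of 161 nt, against 122 nt elsewhere. A log2 fold of at least 2 in both replicates was reached by 31 of the 51, beside 1159 of 2077 on the other autosomes. The 51 peaks lay in 30 windows of 100 kb, led by chr4:1900001-2000000 with 4 peaks. The first 10 Mb of chromosome 4 held 11 of its 28 peaks, and the last segment of chromosome 13 held 5 of its 23.

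Ranked by the lower fold of the replicates, the first peak was chr4:1209824-1209995 on the minus strand, whose log2 folds were 3.41 (replicate 1) and 4.50 (replicate 2). It lay in the second-fullest window of chromosome 4 and had no control cluster. The next 4 were all on chromosome 13. They were chr13:98655118-98655237 on the plus strand with folds of 3.96 and 3.23, chr13:107145245-107145504 on the minus strand with 3.44 and 3.20, chr13:96293583-96293980 on the minus strand with 3.19 and 4.05, and chr13:113485714-113485864 on the plus strand with 3.99 and 3.05. Only these 5 of the 51 peaks passed a log2 fold of 3 in both replicates, beside 112 of 2077 on the other autosomes. None of the 5 had a control cluster. The widest of them, 398 nt, was made of 5 clusters in replicate 1 and 4 in replicate 2 and lay in the minus-strand window near 96 Mb.

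The sixth peak, chr4:1957793-1957894 on the plus strand, had folds of 2.71 and 3.71 and also lay over an enriched control cluster with a fold of 4.69. The seventh, chr13:107220136-107220288 on the minus strand, had 2.66 and 3.43. The eighth was chr4:113066707-113066890 on the plus strand with 2.65 and 2.88. The ninth, chr4:83294607-83294921 on the minus strand, was made of 8 and 3 clusters with highest folds of 3.04 and 2.64. It held the clusters of highest -log10 P on chromosome 4 in both replicates, 49.3 in replicate 1 at chr4:83294827-83294893 and 30.2 in replicate 2 at chr4:83294738-83294824. It too lay over enriched signal in the control, at a fold of 2.15. The tenth was chr13:50366576-50366707 on the minus strand with 3.03 and 2.54.

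Over the 51 peaks the fold was higher in replicate 2 in 29. On chromosome 4 this held for 19 of 28 peaks (67.9%, 49.3 to 82.1), where replicate 2 minus replicate 1 had a median of 0.55 (SD 0.75). On chromosome 13 it held for 10 of 23 (43.5%, 25.6 to 63.2), where the median was -0.06 (SD 1.11). The intervals of the chromosomes overlap. On both chromosomes the median difference was smaller than the SD. Each replicate was set against its own input, so the folds of the replicates are not on 1 scale. Enriched control clusters lay under 5 of the 51 peaks (9.80%, 4.26 to 20.98), 4 on chromosome 4 and 1 on chromosome 13, beside 17.2% of all peaks.

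**Figure D4:**
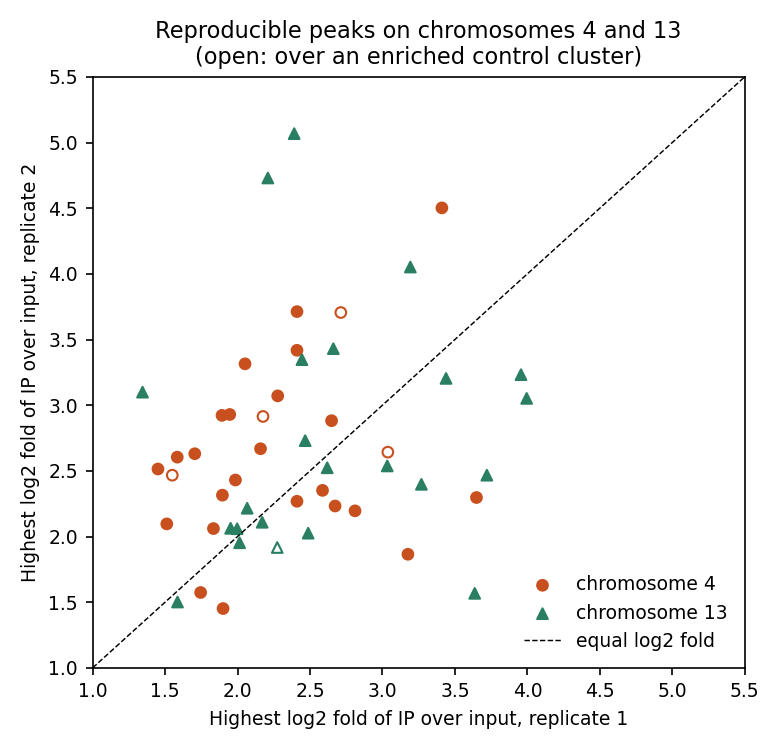
Log2 fold of IP over input in Angel1 replicate 1 (x axis) and replicate 2 (y axis) for the 51 reproducible peaks of chromosome 4 (circles) and chromosome 13 (triangles), taken as the highest fold among each peak's clusters. The dashed line marks equal folds, 29 of the 51 lie above it, and the 5 open marks lie over an enriched control cluster.

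The control IP gives the background of the antibody and the procedure. Few Angel1 clusters lay over a control cluster, on these chromosomes as over the whole lists. The control list is far shorter, with 312 clusters here beside 4685 and 4518, which limits how large these shares can be. They are therefore not a measure of how low the background was. In replicate 1 the share was 1.22% on chromosome 4 (0.889 to 1.68), the lowest of the autosomes, beside 2.58% of the whole list. On chromosome 13 it was 2.83% (2.14 to 3.74), which ranked 18 from the lowest. Counting enriched control clusters alone, these shares were 1.09% and 2.53%, beside 2.08%. In replicate 2 the shares were 1.24% (0.896 to 1.73), again the lowest, and 2.23% (1.63 to 3.04), which ranked 11, beside 2.66%. Over enriched control clusters they were 0.925% and 1.99%, beside 2.05%. Seen from the control list, 27.8% of the control clusters of chromosome 4 (20.9 to 36.0) and 29.6% of those of chromosome 13 (23.4 to 36.7) lay over a cluster of either Angel1 replicate, beside 48.1% of all control clusters. Most control clusters of both chromosomes therefore had no Angel1 counterpart. On chromosome 4 the 96 without one had a median width of 18 nt and the 37 with one 47 nt, and on chromosome 13 the 126 without one had 18 nt and the 53 with one 22 nt, beside 23 and 39 nt on the other autosomes.

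Nearly all control clusters were called enriched over the control input, 128 of 133 on chromosome 4 (96.2%) and 174 of 179 on chromosome 13 (97.2%), beside 91.8% of the whole list. Past P of 0.001 were 102 and 150 (80.8% of both), beside 64.5% of the list. Their median widths, 26 nt and 19 nt, were well below those of the Angel1 lists, and 69.2% of them abutted another control cluster, against 53.8% elsewhere. The highest control fold on chromosome 4 was 7.41 at chr4:1238057-1238064, an 8 nt cluster. On chromosome 13 it was 10.08 at chr13:103478477-103478486, a 10 nt cluster with -log10 P of 83.4, and 3 clusters shared that fold. The widest control clusters were chr4:83294783-83294909 (127 nt), inside the ninth reproducible peak, and chr13:52518251-52518341 (91 nt), 1 of 2 of that width.

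The control clusters were uneven by strand, in opposite directions on the 2 chromosomes. On chromosome 4, 33 lay on the plus strand and 100 on the minus strand (24.8% plus, 18.2 to 32.8), the lowest plus share of the autosomes. On chromosome 13, 138 lay on the plus strand and 41 on the minus strand (77.1% plus, 70.4 to 82.6), the third highest. The other autosomes together had 53.0%, and the Angel1 lists stood between 51.1% and 54.9% on both chromosomes. Control clusters under 30 nt made up 81.2% of those on the plus strand of chromosome 13 (73.8 to 86.8) and 51.2% of those on its minus strand (36.5 to 65.7). On chromosome 4 they made up 61.0% on the minus strand (51.2 to 70.0) and 36.4% on the plus strand (22.2 to 53.4), with overlapping intervals. On the other autosomes the shares were 49.9% (plus) and 49.4% (minus). The plus-strand clusters of chromosome 13 lay in 60 windows, and the minus-strand clusters of chromosome 4 in 44. What set the strand of these clusters was not tested.

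**Figure D5:**
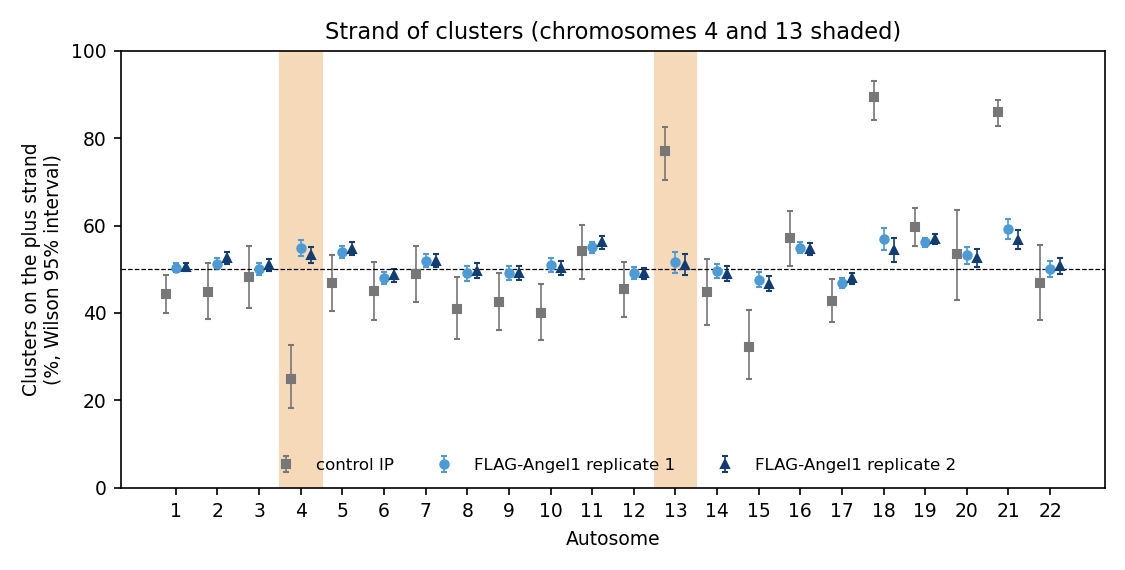
Share of clusters on the plus strand for each autosome, with Wilson 95% intervals, in the control IP (squares), Angel1 replicate 1 (circles) and replicate 2 (triangles), with the dashed line at equal strands. On the shaded chromosomes the control lies at 24.8% (chromosome 4) and 77.1% (chromosome 13), while the Angel1 points stay between 51.1% and 54.9%.

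The 3 windows with the most control clusters differed widely in their Angel1 clusters. The first, chr13:32900001-33000000, held 14 control clusters, all on the plus strand and all enriched, beside 10 and 11 Angel1 clusters. The second was the fullest Angel1 window of chromosome 13, chr13:98600001-98700000, with 7 control clusters. The third was chr4:6100001-6200000, with 6 control clusters on the minus strand beside 1 and 5 Angel1 clusters, and it tied with chr4:83200001-83300000, also with 6 on the minus strand, beside 10 and 11.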

How the data were processed

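The authors ran eCLIP on 6 libraries sequenced single-end on a MiSeq. The submitters' processing notes name cutadapt, STAR, SAMtools and UMI-tools and the builds GRCh37 and hg19, without versions. The 3 IP lists deposited by the authors give each cluster's position, strand, log2 fold of IP over size-matched input and -log10 P (highest value 400), and inputs enter only through these columns. The lists hold no read counts, so depth is unknown. Clusters were overlapped with bedtools 2.31.1 (1 nt, same strand) and summarised in Python 3.11.15 with pandas 2.3.3, scipy 1.17.1 and pyranges 0.1.4, whose hg19 table gave chromosome lengths. Positions are 1-based on GRCh37. Windows of 100 kb were counted from the first base, by cluster start. Shares carry Wilson 95% intervals, which cover counting error only. Overlap and merging steps were tested on simulated lists. The members, lists and rules were chosen with earlier results of these data known. Regions named are the 8 windows per chromosome with the largest smaller count of the replicates, the 10 reproducible peaks with the largest lower fold, the widest cluster and the highest fold of each list, and the 3 fullest control windows. Genes at these regions were not analysed here. Gene names and promoters came from RefSeq tables (GRCh38.p14).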

Additional observations from a re-analysis of the deposited data

How the results depend on the processing

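Of 61 values recomputed under another setting, 28 stayed near the reported value and 33 moved. Only the correlations and the median log2 folds could change sign, since all other values cannot be negative, and none of them did. The density of chromosomes 4 and 13 stayed below that of the other autosomes in every ratio tried. No paired analysis was possible because no result comes from a test between groups and the inputs were not analysed as libraries. The values are given for the control, replicate 1 and replicate 2 in that order. Clusters per window of 100 kb with a cluster were 2.09, 5.51 and 5.57, and enriched clusters alone numbered 1.09 per Mb in replicate 1 and 4.74 in replicate 2. The enriched share was 80.8%, 2.05% and 10.1% at P of 0.001, and 80.1%, 0.448% and 3.70% when the log2 fold also had to reach 3. Joining abutting clusters gave 0.663 clusters per Mb in the control, an enriched share of 5.87% in replicate 1 and 30.8% in replicate 2, and median widths of 36 nt (control) and 66 nt (replicate 1). The median enriched cluster was 101 nt wide in replicate 1 and 75.5 nt in replicate 2. Clusters of at least 100 nt had a median log2 fold of 1.77, 0.94 and 2.14. With a reciprocal overlap of 50%, 28.8% of replicate 1 and 29.8% of replicate 2 clusters were found in the other replicate, and 0.875% and 0.885% lay over a control cluster. Between enriched clusters of both replicates the shared portion was 79.0% and 19.1%. The correlation of folds was 0.029 over pairs enriched in both replicates, a choice that narrows the range of fold, and 0.32 over means of 87 windows. Reproducible peaks numbered 201 at P of 0.05 and 5 where the log2 fold had to reach 3 in both, and leaving out a replicate left 96 to 458 clusters past 0.001 in the other. Of the 8 fullest windows, 8 on chromosome 4 and 7 on chromosome 13 were the same after joining, and 7 and 5 of the windows moved by 50 kb overlapped a listed one. Without read counts, low depth cannot be told from absent binding, and the single control leaves its spread unknown.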

Other observations

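The control list was uneven by strand on other chromosomes too. On chromosome 18, 161 control clusters lay on the plus strand and 19 on the minus strand, and 91.3% of the plus-strand clusters were under 30 nt wide. On chromosome 21 the numbers were 469 and 76, with 91.3% of the plus-strand clusters under 30 nt. On chromosome 15 the plus strand held fewer, 42 against 88 (32.3% plus, 24.9 to 40.8), as on chromosome 4. On chromosome X there were 200 on the plus strand and 147 on the minus strand, with 77.0% of the plus-strand clusters under 30 nt. In Angel1 replicate 1, 39.6% of the plus-strand clusters of chromosome 21 and 23.8% of those of chromosome 13 were under 30 nt. The minus-strand shares were 23.9% and 18.7%. The autosomes other than 4 and 13 together had 23.02% (plus) and 22.28% (minus), so the plus strand of chromosome 13 lay near the usual share. In replicate 2 the plus-strand shares were 37.1% on chromosome 21, 23.4% on chromosome 13 and 25.3% on the autosomes other than 4 and 13. These values are descriptions, and the strand was not tested over libraries, since there was 1 control IP.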
